A study of Mus musculus and Homo sapiens with 81 samples.

Results

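The DNA replication genes described here are 41 genes that license, start and copy DNA or supply its building blocks. They were chosen by gene symbol from 23336 genes in the mouse count file and from 23227 in each human file, where the upper-case symbols were taken. By role they are 11 origin licensing genes, 6 helicase activation genes, 9 polymerase and primase genes, 9 genes of the sliding clamp, its loader and the single-strand binding protein RPA, 3 genes that mature the lagging strand and 3 that supply nucleotides. All 41 had counts in every library, between 14 and 5718, and all 41 passed the filter on low counts in every cell line.

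RNA was sequenced from cultured cancer cells that carried a guide against Ptpn2, a phosphatase gene that limits signalling downstream of interferon receptors, or a non-targeting control guide. B16 mouse melanoma cells carried Ptpn2sg3 (called Ptpn2-null here, as labelled) or Bro3 (control), and each genotype was given vehicle, IFNb (1000 U/mL), IFNg (100 ng/mL), TNFa (10 ng/mL), IFNb+IFNg, IFNb+TNFa or IFNg+TNFa for 48 h, with 3 libraries per group. Among human cells, the melanoma lines A375 and MelJuSo, the lung line A549 and the colon line HT29 carried Ptpn2sg3 or Bro4 and were given vehicle or IFNg (100 ng/mL), with 2 libraries per group in A549 and HT29, 3 in MelJuSo, and 3 in A375 apart from its control vehicle group, which has replicates 2 and 3. Each line had 1 guide per genotype, so effects of the gene and of the guide or cell population cannot be told apart, and separate cultures are not stated for the replicates, so p-values measure the spread between these libraries, which may be technical.

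A chromosome is copied in ordered steps. The origin recognition complex (ORC), Cdc6 and Cdt1 load the MCM helicase onto DNA during G1; Cdc45, the GINS complex and Mcm10 then turn the loaded helicase into a working one at S phase. Polymerase alpha with primase starts each strand, polymerases delta and epsilon extend it on the Pcna clamp, and Fen1 and Lig1 join the lagging strand fragments. Many of these genes are known targets of E2F transcription factors, which the RB protein restrains until G1 cyclins act.

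Across the 81 libraries total counts ran from 3498860 to 9605776. Ptpn2 was lower in the libraries labelled Ptpn2-null under all 7 treatments in B16 (log2 fold changes from -2.48 to -1.97) and under both treatments in A549, HT29 and MelJuSo (-1.18 to -0.45). In A375 it went against the labels under vehicle, being higher in the libraries labelled null by 1.03 ± 0.13 (SE), and under IFNg it was at -0.66 ± 0.12, so A375 groups are named as labelled and no direction by genotype is drawn from them. For HT29 control IFNg replicate 1 the cell type label names lung while the line label names HT29, and title and line set its group. The 7 melanocyte markers were all found in every B16 and MelJuSo library. In A375 they summed to 162 to 285 CPM, nearly all from MITF and SOX10, and TYR was at 0 in 10 of 11 libraries. The 6 epithelial markers summed to 246 to 545 CPM in A375, more than the melanocyte markers in each group. In A549 the 5 lung markers summed to 68.8 to 92 CPM, nearly all from FOXA2, with NKX2-1, SFTPB and SFTPC at most 0.321. In HT29 the 6 colon markers summed to 487 to 652 CPM, from KRT20, LGALS4 and VIL1, with CDX1, CDX2 and CDH17 at most 1.47. In B16 5 libraries stood apart from their groups (Ptpn2-null TNFa replicate 1, Ptpn2-null IFNb+IFNg replicate 3, control IFNb+IFNg replicates 2 and 3, Ptpn2-null IFNg+TNFa replicate 1), with deviations that varied with transcript length. Such variation was not limited to them. Control IFNg+TNFa replicates 1 and 3 had Spearman correlations with length of 0.428 and -0.474. Over the B16 comparisons the log2 fold change correlated with length at -0.534 to 0.473.

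The promoters of the members that fell most in each role group under IFNg+TNFa in B16 control cells are printed because these genes moved together. They were searched for E2F-like letters, which not all of them hold. Each is the RefSeq window (GRCm38.p6, gene strand) from 250 bases before to 50 bases after the annotated start, in lower case, with capitals marking E2F-like letters on either strand. The letters searched were TTCCCGC together with the variant TTCGCGC and the further variant TTGGCGC. Lig1 has 3 windows, and the one with the most matches is shown.
Mcm2, chr6:88898731-88899030, minus strand: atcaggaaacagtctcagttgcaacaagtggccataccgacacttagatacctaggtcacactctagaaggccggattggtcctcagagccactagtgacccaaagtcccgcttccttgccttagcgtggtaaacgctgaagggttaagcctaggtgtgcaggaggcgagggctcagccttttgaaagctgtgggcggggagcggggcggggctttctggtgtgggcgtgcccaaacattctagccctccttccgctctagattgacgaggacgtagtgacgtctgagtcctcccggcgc
Cdc45, chr16:18811923-18812222, minus strand: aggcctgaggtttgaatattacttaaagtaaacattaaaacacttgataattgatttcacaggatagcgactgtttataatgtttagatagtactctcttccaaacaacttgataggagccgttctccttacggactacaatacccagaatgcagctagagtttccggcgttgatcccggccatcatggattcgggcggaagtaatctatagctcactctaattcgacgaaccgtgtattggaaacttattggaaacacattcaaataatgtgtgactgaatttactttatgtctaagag
Pola1, chrX:93632106-93632405, minus strand: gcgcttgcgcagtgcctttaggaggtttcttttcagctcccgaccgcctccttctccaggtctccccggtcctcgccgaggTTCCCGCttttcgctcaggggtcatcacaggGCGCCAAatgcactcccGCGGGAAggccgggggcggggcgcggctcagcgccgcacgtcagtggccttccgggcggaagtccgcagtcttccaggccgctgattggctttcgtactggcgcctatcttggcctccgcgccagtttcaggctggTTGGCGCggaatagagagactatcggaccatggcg
Rfc4, chr16:23127681-23127980, minus strand: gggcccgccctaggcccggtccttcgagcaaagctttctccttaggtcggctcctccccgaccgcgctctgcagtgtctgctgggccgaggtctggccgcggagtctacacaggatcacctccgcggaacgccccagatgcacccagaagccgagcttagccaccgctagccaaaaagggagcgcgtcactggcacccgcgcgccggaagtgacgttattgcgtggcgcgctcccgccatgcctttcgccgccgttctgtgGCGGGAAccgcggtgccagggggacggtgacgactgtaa
Lig1, chr7:13278576-13278875, plus strand: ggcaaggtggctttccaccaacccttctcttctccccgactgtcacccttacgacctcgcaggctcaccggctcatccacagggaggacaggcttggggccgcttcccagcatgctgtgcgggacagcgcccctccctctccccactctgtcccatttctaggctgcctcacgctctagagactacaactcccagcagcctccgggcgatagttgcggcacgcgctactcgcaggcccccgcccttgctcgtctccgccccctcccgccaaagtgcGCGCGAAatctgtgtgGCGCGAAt
Rrm1, chr7:102441445-102441744, plus strand: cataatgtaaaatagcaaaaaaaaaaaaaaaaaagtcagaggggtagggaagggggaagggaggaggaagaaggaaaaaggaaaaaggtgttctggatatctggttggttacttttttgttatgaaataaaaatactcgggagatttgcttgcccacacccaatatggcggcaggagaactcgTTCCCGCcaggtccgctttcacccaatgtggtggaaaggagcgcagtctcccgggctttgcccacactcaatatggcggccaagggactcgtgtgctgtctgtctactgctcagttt

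The Pola1 window held 4 matches, 169, 138 and 121 bases before and 15 bases after the start. The Lig1 window held 2, the Rfc4 and Rrm1 windows 1 each, and the Mcm2 and Cdc45 windows none. RefSeq windows were found for 34 of the 41 members, and 21 of these (61.8%) held E2F-like letters in at least 1 window, against 9.2% of 27025 genes with a window. Counted by window, 23 of 40 held them, against 8.07% of 32851 windows. CCAAT, a common promoter element, was in 23 of 34 members (67.6%) against 41.1% of all genes, and TTTGAA, the core of the CHR element of mitotic genes, in 5 of 34 (14.7%) against 20.2%. A match of letters is a description of the sequence and not a bound site, and no binding was measured.

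In vehicle-treated B16 control cells, per kilobase of exon, Mcm2 had the highest level at 222 CPM per kb (counts scaled to library size, divided by length), followed by Rrm2 at 179, Mcm3 at 162, Rrm1 at 154 and Pcna at 131. The lowest were Gins2 at 6.32, Gins3 at 7.28 and Rnaseh2a at 7.67. By this measure the range has a helicase subunit at its top and Gins2 and Gins3 at its bottom, while Gins4 was at 52.1 and Gins1 at 28.8. Length was the union of a gene's annotated exons, 3900 bases for Gins2, 1349 for Gins4 and 1087 for Gins1, so the order depends on it. Before division by length Gins2 was at 22.7, 23.8 and 27.5 CPM and Gins1 at 28.8, 29.4 and 35.7.

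IFNg and TNFa together lowered nearly the whole replication module in B16 control cells. Of 41 members 40 were called lower (adjusted p under 0.05) and none higher, against 33.3% and 36% of all tested genes. The members' median log2 fold change was -1.65, and that of all tested genes 0.03. Summed over the members, the level was 6763 to 6883 CPM under vehicle and 2270 to 2333 under IFNg+TNFa. In bulk RNA, fewer cells in S phase and less RNA per cell cannot be told apart. The summed melanocyte markers fell alongside, from 26700 to 27100 CPM under vehicle to 12400 to 13100, with 6 of 7 called lower; summed leukocyte markers were at most 1.72 CPM in every B16 library, with Ptprc and Itgam at 0 in all 42. The part of the melanocyte change in the result was not tested.

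Among the licensing genes all 11 were called lower (median -1.74). Mcm2, a subunit of the helicase ring, measured 753, 757 and 738 CPM under vehicle and 182, 185 and 183 under IFNg+TNFa. The 3 treated libraries lay far below the 3 vehicle libraries, with a log2 fold change of -2.03 ± 0.04 (SE, adjusted p = 1e-40). Cdc6, which loads the helicase, measured 56.5, 52.6 and 54.6 CPM under vehicle and 13.8, 14.6 and 15.2 under the pair, again without overlap (-1.91 ± 0.10, adjusted p = 3.8e-24). Orc2, a subunit of the origin recognition complex, changed least in this group at -0.46 ± 0.06.

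All 6 helicase activation genes were called lower (median -1.70). Cdc45, which joins the helicase as it is activated, measured 92.2, 92.8 and 87.5 CPM under vehicle and 24.2, 21.5 and 21.3 under the pair (-2.03 ± 0.09, adjusted p = 1.4e-27), and the groups did not overlap. The GINS subunits spread widely, from -1.92 for Gins1 to -0.59 for Gins4.

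All 9 polymerase and primase genes were called lower (median -1.75). Pola1, the catalytic subunit of polymerase alpha, measured 105, 112 and 110 CPM under vehicle and 30.3, 22.4 and 27.7 under the pair (-2.03 ± 0.10, adjusted p = 7.7e-24). Pole, the catalytic subunit of polymerase epsilon, measured 96.5, 103 and 88.9 CPM and then 24.8, 24.0 and 23.0 (-2.00 ± 0.10, adjusted p = 4.2e-25). Neither gene's groups overlapped. Pold3, an accessory subunit of polymerase delta, fell least in this group (-0.40 ± 0.08).

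All 9 genes of the clamp, its loader and RPA were called lower (median -1.22). Rfc4, a clamp loader subunit, measured 70.9, 66.3 and 58.5 CPM under vehicle and 23.6, 19.5 and 16.8 under the pair (-1.71 ± 0.10, adjusted p = 9.4e-21). Pcna, the clamp itself, measured 188, 207 and 201 CPM and then 64.7, 60 and 61.8 (-1.68 ± 0.07, adjusted p = 2.9e-29). Both genes were lower in every treated library than in any vehicle library. Rfc3, another loader subunit, fell by 0.23 ± 0.09 and was not called without control vehicle replicate 3, where its value was -0.17.

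Of the 3 lagging strand genes 2 were called lower. Lig1, the ligase that seals the fragments, measured 243, 261 and 262 CPM under vehicle and 51.1, 51.5 and 55.1 under the pair (-2.28 ± 0.07, adjusted p = 2.5e-35). Rnaseh2a, a subunit of the enzyme that removes RNA from DNA, was the 1 member of the 41 that was not called, at 21.1, 22.8 and 27.0 CPM against 22.3, 23.1 and 24.0 (-0.04 ± 0.14, adjusted p = 0.83), with overlapping groups. Its exons share bases with the exons of Prdx2 on the opposite strand and of Gm49661 on the same strand in GENCODE vM21, and the strand setting of the counting is not given in the sources used here. Such sharing holds for 15 of the 41 members, Cdc45, Lig1, Pole and Rfc4 included.

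All 3 nucleotide supply genes were called lower, with the lowest median of the role groups (-2.07). Rrm1, the large subunit of ribonucleotide reductase, measured 632, 609 and 607 CPM under vehicle and 132, 130 and 114 under the pair (-2.30 ± 0.06, adjusted p = 1.8e-36), the largest fall among the members. Rrm2, its small subunit, went from 401, 396 and 379 CPM to 96.6, 91.2 and 93.1 (-2.07 ± 0.05, adjusted p = 1.1e-37), and Tyms, thymidylate synthase, from 34.3, 33.9 and 38.3 to 8.76, 9.64 and 11 (-1.85 ± 0.12, adjusted p = 3.8e-19). In all 3 genes the groups were well separated.

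**Figure D1:**
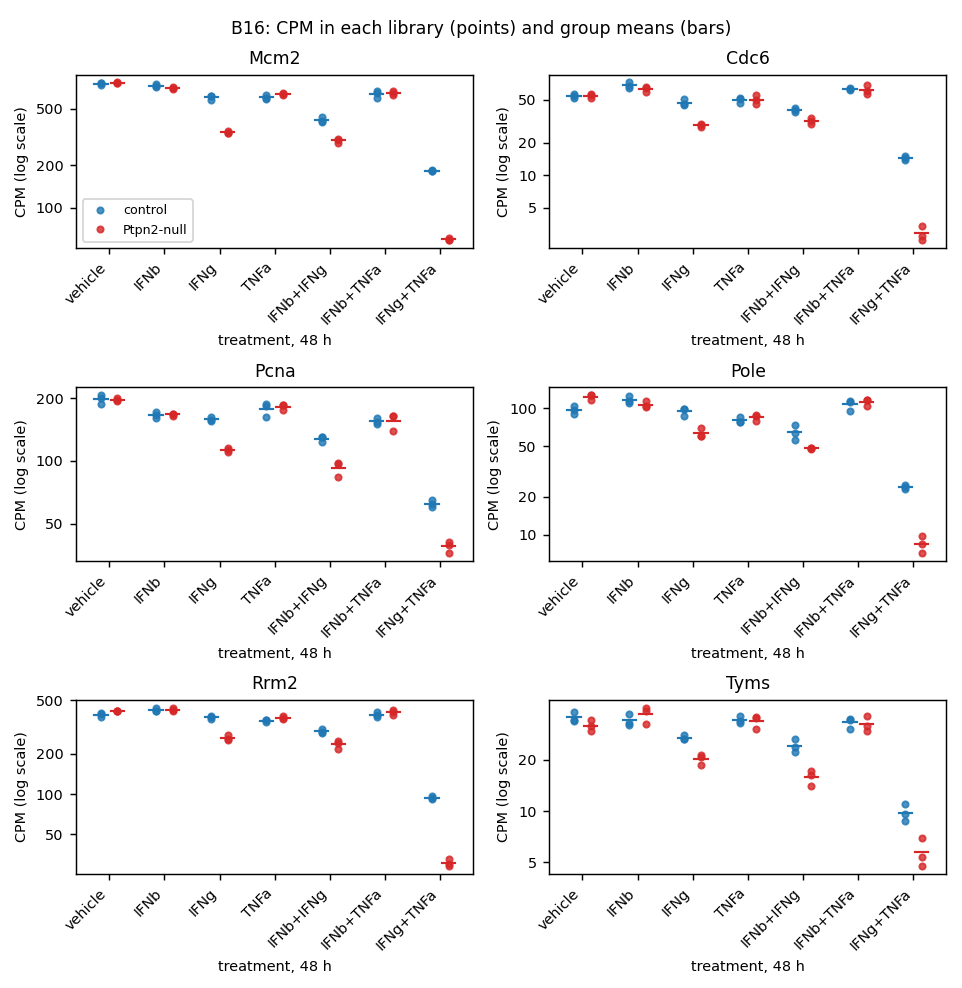
CPM on a log axis of 6 genes in every B16 library (points, 3 per group) with group means (bars), by treatment, for control (blue) and Ptpn2-null cells (red). IFNg+TNFa libraries are the lowest for each of the 6 genes, and Mcm2 ranged there from 182 to 185 CPM in control and from 59.3 to 61.5 in Ptpn2-null cells.

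The single cytokines changed fewer members and by less. Under IFNg 16 members were called lower and 1 higher (17.9% and 20% of all genes; median -0.15, against 0.00 for all genes). Under TNFa 15 were lower and 2 higher (23% and 24.7%; median -0.09 against 0.05). The changes were small. Mcm2 measured 613, 610 and 579 CPM under IFNg and 620, 593 and 590 under TNFa, -0.32 ± 0.04 in each case. Cdc6 was at 50.6, 44.9 and 46.2 CPM under IFNg (-0.21 ± 0.08, not called without control IFNg replicate 2 or 3 or control vehicle replicate 1 or 3, at -0.21 to -0.18) and at 52.4, 51.1 and 47.3 under TNFa, where it was not called. Both values stand close to the vehicle libraries, in contrast to the pair. Pcna was at 158, 163 and 155 CPM under IFNg and at 162, 187 and 183 under TNFa. All of these lie well above the levels under the pair. Rrm2 was at 362, 385 and 373 CPM under IFNg, where it was not called (-0.07 ± 0.05), and at 347, 356 and 359 under TNFa (-0.15 ± 0.05). Pole was at 98.8, 87.0 and 98.4 CPM under IFNg, also not called (-0.02 ± 0.08), and at 77.6, 77.4 and 85.4 under TNFa (-0.26 ± 0.08), a direction that turned to 0.04 when a trend with transcript length was removed. Tyms was at 27.9, 26.4 and 26.6 CPM under IFNg (-0.40 ± 0.10) and at 33.7, 32.9 and 36.1 under TNFa, where it was not called (-0.06 ± 0.10). The 1 higher call under IFNg was Pola2, the second polymerase alpha subunit, at 0.22 ± 0.09 with overlapping groups; the call was lost without any 1 of the 3 control IFNg libraries (0.23, 0.21 and 0.22), and without control vehicle replicate 2 (0.23) or 3 (0.10).

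The fall under the pair was then compared with the sum of the single log2 effects. Of 41 members 39 were lower than that sum and none higher (15.1% and 10.5% of all genes), with a median departure of -1.20 against -0.01. Lig1 departed by -1.99 ± 0.09, Prim1, the primase subunit, by -1.93 ± 0.15, Rrm2 and Cdc45 by -1.85 ± 0.07 and -1.85 ± 0.11, and Cdc6 by -1.58 ± 0.13 (adjusted p from 2.3e-27 to 7.3e-16). Rpa3, the smallest RPA subunit, and Rnaseh2a were not called at -0.33 ± 0.17 and -0.13 ± 0.20.

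**Figure D2:**
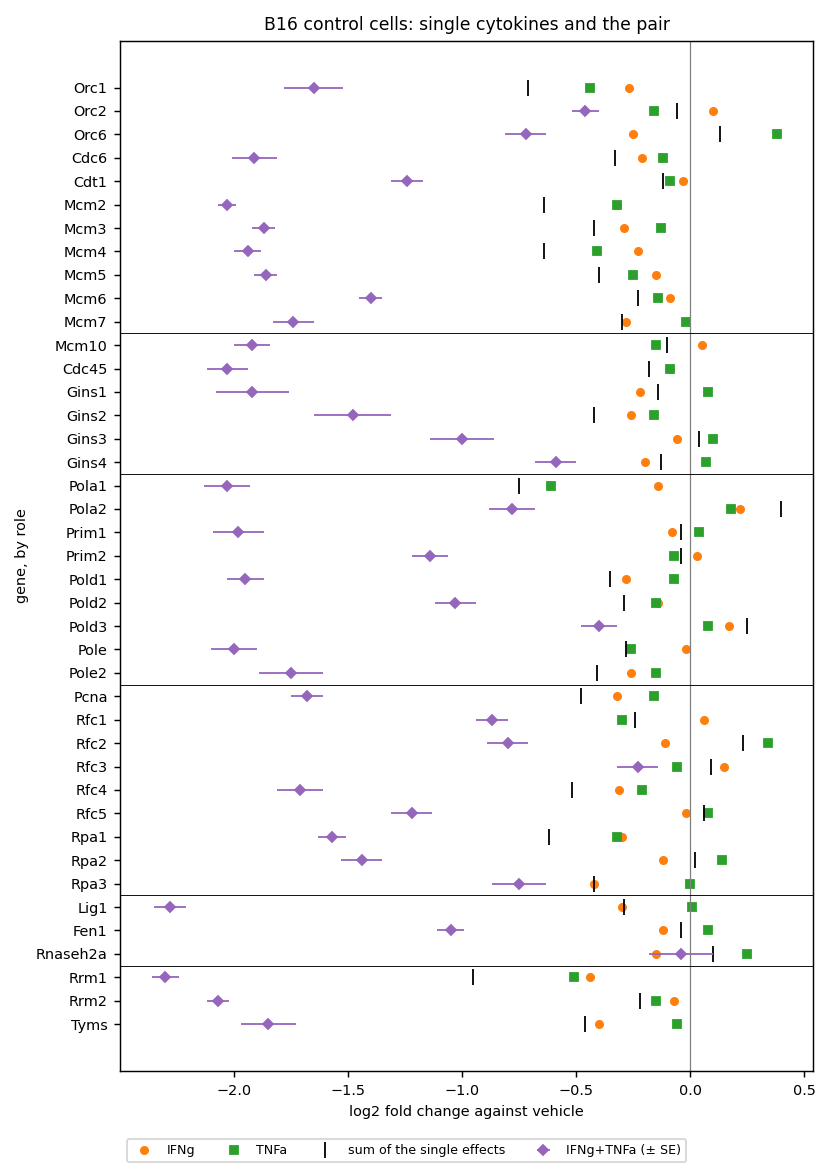
Log2 fold change against vehicle (x axis) of each member (y axis, by role) in B16 control cells for IFNg (circles), TNFa (squares), the sum of both (ticks) and IFNg+TNFa (diamonds, bars ± SE); the circle of Mcm2 lies behind its square at -0.32. The diamonds lie left of the ticks, by 1.99 for Lig1 and by 0.13 for Rnaseh2a.

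The pairs with IFNb changed fewer members. IFNb+IFNg gave 23 lower and 4 higher calls (31.1% and 34.3% of all genes; median -0.30 against 0.04), led by Rrm1 at -1.17 ± 0.06 and Pola1 at -0.98 ± 0.09; the higher calls were 2 without control IFNb+IFNg replicate 3 or control vehicle replicate 1. Against the sum of its single effects this pair was lower for 18 members and higher for 7 (25.9% and 20.9%; median -0.19 against 0.00); the higher calls were 3 or 4 without 1 of 7 libraries (control IFNb replicates 1 and 3, control IFNb+IFNg replicate 3, control vehicle replicates 1 and 2, control IFNg replicates 1 and 3). IFNb alone gave 9 higher and 5 lower calls (17% and 13.5%; median -0.01 against 0.02), and 5 higher without control vehicle replicate 3; without control IFNb replicate 1 or 3, or without control vehicle replicate 1, 2 or 3, the lower calls were 2 or 3. IFNb+TNFa gave 12 lower and 4 higher calls (16.9% and 21.6%; median -0.10 against 0.03), the latter 1 without control IFNb+TNFa replicate 1 or 2 and 2 without control vehicle replicate 2 or 3. Against the sum of its single effects IFNb+TNFa gave 3 higher and 2 lower calls (14.8% and 11.5%; median 0.01 against -0.03), 5 higher without control IFNb replicate 2 and 1 lower without control IFNb+TNFa replicate 1 or control IFNb replicate 3.

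Under vehicle 1 member differed between the genotypes. Pole was called higher in Ptpn2-null B16 cells (126, 116 and 126 CPM against 96.5, 103 and 88.9; 0.35 ± 0.08), and no member was called lower (1.91% and 1.16% of all genes); Pole was not called without control vehicle replicate 3 (0.30). Null cells under vehicle had 766, 764 and 761 CPM of Mcm2, 56.4, 52.3 and 55.0 of Cdc6, 197, 194 and 201 of Pcna, 420, 420 and 416 of Rrm2 and 31.5, 29.6 and 34.1 of Tyms, and none of these was called. Under IFNb, TNFa and IFNb+TNFa edgeR called no member in either direction. Of all genes 0.384%, 0.264% and 0.426% were called higher and 0.171%, 0.674% and 0.171% lower. Under these treatments 4, 1 and 2 members had an unadjusted p under 0.05, and DESeq2 called none.

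With IFNg present the Ptpn2-null cells were lower. Under IFNg alone 35 of 41 members were called lower in Ptpn2-null than in control cells and none higher (17.2% and 17.7% of all genes; median -0.49 against 0.00). Summed member levels were 4289 to 4323 CPM in null and 5904 to 6080 in control libraries, against 6956 to 6981 and 6763 to 6883 under vehicle. All 11 licensing genes were lower, with Mcm2 at 338, 347 and 339 CPM in null against 613, 610 and 579 in control cells (-0.82 ± 0.04, adjusted p = 1.6e-22), 3 libraries against 3 without overlap. Cdc6 followed at 29.3, 28.3 and 29.9 CPM against 50.6, 44.9 and 46.2 (-0.69 ± 0.09). Summed melanocyte markers were lower as well, 15600 to 15900 against 23200 to 23500 CPM, and their part was not tested.

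The other role groups had medians from -0.51 to -0.35. Called lower were 4 of 6 helicase activation genes, led by the GINS subunit Gins1 (-0.64 ± 0.14), 8 of 9 polymerase and primase genes, led by Prim1 (-0.61 ± 0.10), and 7 of 9 clamp, loader and RPA genes, led by Rfc4 at 37.2, 39.9 and 31.2 against 52.7, 53.9 and 50.7 CPM (-0.55 ± 0.10). Lig1 was at 149, 135 and 129 CPM in null and 212, 212 and 199 in control cells (-0.60 ± 0.06), and Rrm1 at 287, 299 and 313 against 472, 451 and 441 (-0.60 ± 0.06). In each of these 3 genes every null library was below every control library. Pole was at 60.4, 69.9 and 59.8 CPM in null cells (-0.58 ± 0.08), Rrm2 at 275, 259 and 253 (-0.51 ± 0.05), Pcna at 116, 113 and 110 (-0.49 ± 0.06) and Tyms at 21.4, 20.9 and 18.6 (-0.41 ± 0.11).

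Under IFNg+TNFa, where control cells were already low, Ptpn2-null cells were lower still. Of 41 members 31 were called lower and 2 higher (20.8% and 20.3% of all genes; median -0.72 against -0.01). Cdc6 measured 2.51, 3.41 and 2.76 CPM in null and 13.8, 14.6 and 15.2 in control cells (-2.33 ± 0.17, adjusted p = 1.4e-16), the largest difference. Its null values rest on only 14, 17 and 15 counts. Mcm2 measured 59.3, 59.3 and 61.5 against 182, 185 and 183 (-1.61 ± 0.05), and Rrm2 30.1, 32.5 and 29.1 against 96.6, 91.2 and 93.1 (-1.62 ± 0.07). For these genes the null libraries were all far below the control libraries. Pole was at 8.42, 9.82 and 7.18 CPM in null cells (-1.50 ± 0.15), Pcna at 40.7, 36.1 and 39.6 (-0.68 ± 0.08) and Tyms at 6.99, 5.41 and 4.78 (-0.78 ± 0.18).

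In null cells the mean under IFNg+TNFa was a median of 19.7% of the vehicle mean, from 5.3% for Cdc6 to 122% for Rfc3, while in control cells it was a median of 31.6%, from 20.3% for Rrm1 to 97.9% for Rnaseh2a. Higher in null than in control cells under the pair were Pold3, at 60.4, 57.1 and 58.5 against 44.9, 41.3 and 44.7 CPM (0.43 ± 0.08), and Rfc3, at 80.8, 66.3 and 68.6 against 57.0, 52.4 and 53.3 (0.41 ± 0.08), without overlap in either gene. Mcm6, another helicase subunit, did not pass the test (-0.05 ± 0.05). Summed melanocyte markers were 6800 to 6980 CPM in null and 12400 to 13100 in control libraries.

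**Figure D3:**
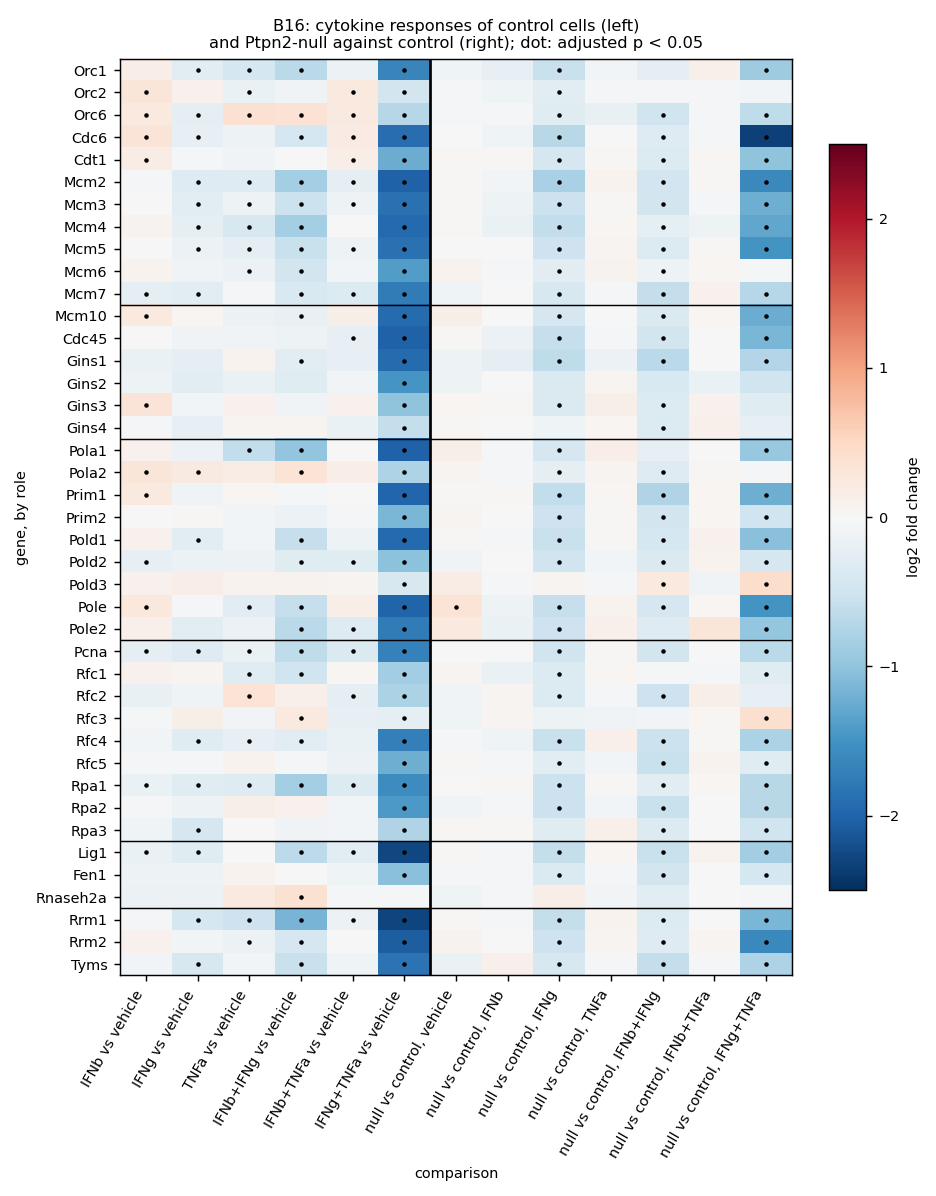
Log2 fold change (colour) of the 41 genes (rows, by role) in B16 for each cytokine against vehicle in control cells (left columns) and for Ptpn2-null against control cells under each treatment (right columns); dots mark adjusted p under 0.05. The IFNg+TNFa column on the left holds 40 dots, and on the right the IFNg, IFNb+IFNg and IFNg+TNFa columns hold 35, 33 and 33.

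The dependence on the cytokine was tested as an interaction. For IFNg 30 members had a lower response in null than in control cells and none a higher one (12.4% and 9.07% of all genes; median -0.46 against -0.02), led by Pole (-0.93 ± 0.11, adjusted p = 3.9e-09) and Mcm2 (-0.84 ± 0.06, adjusted p = 1.4e-16). The Pole value includes its higher vehicle level in null cells (126, 116 and 126 against 96.5, 103 and 88.9 CPM). That vehicle call was lost without control vehicle replicate 3. The Pole value for IFNb below includes it too. For IFNg+TNFa 29 were lower and 1, Rfc3 (0.52 ± 0.12), higher (15.3% and 11%; median -0.62 against -0.03), led by Cdc6 (-2.33 ± 0.19). For IFNb+IFNg 29 were lower and none higher (8.74% and 6.69%). The genotype difference under that pair held 32 lower calls and 1 higher (19.2% in each direction). The higher one, Pold3 at 0.24, was not called without the 5 libraries that stood apart (0.26). Without these libraries the lower calls were 22 for the interaction and 25 for the genotype difference. For IFNb the 1 call was Pole (-0.47 ± 0.11; 0.324% of all genes lower), which was lost without any 1 of 6 libraries (Ptpn2-null IFNb replicates 1 and 2, -0.45 each; control IFNb replicate 3, -0.42; control vehicle replicates 1 and 3, -0.48 and -0.42; Ptpn2-null vehicle replicate 3, -0.45). For TNFa (0.0341% of all genes lower, 0% higher) and IFNb+TNFa (0.469% and 0.443%) edgeR and DESeq2 called none, with 1 and 2 members at an unadjusted p under 0.05.

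The human lines repeated the comparison under IFNg. In HT29 all 41 members were called lower in null than in control cells (20.5% of all genes lower, 21.3% higher; median -0.72 against 0.00), from -1.10 ± 0.14 for TYMS to -0.23 ± 0.06 for RFC1, the large clamp loader subunit. TYMS measured 10.8 and 12.7 CPM in null and 23.8 and 26.1 in control libraries, MCM6 72.7 and 63.8 against 143 and 132 (-1.0 ± 0.06), and RRM2 211 and 190 against 383 and 354 (-0.87 ± 0.05). No null library reached a control library in these genes. TYMS was also called lower under vehicle, at 26.9 and 25.2 CPM in null and 34.2 and 35.4 in control libraries. Under IFNg the leukocyte markers summed to 64 to 68.4 CPM in null and 25 to 25.7 in control libraries, with both tested genes, CD14 and ITGAM, called higher and PTPRC at 0 in 7 of 8 libraries, and the colon markers to 487 to 502 against 620 to 652, with 3 of 5 tested called lower. Their part in the result was not tested. Under vehicle 10 members were lower and none higher (8.66% and 12.5%), and 6 without control vehicle replicate 1 or Ptpn2-null vehicle replicate 2. Summed over the members, the vehicle level was 4729 to 4880 CPM in null and 5170 to 5257 in control libraries, without overlap. The interaction was lower for 35 members and higher for none (11.8% and 7.37%).

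HT29 control cells answered IFNg in both directions. Of the 41 members 16 were lower and 7 higher (28.7% and 30.8% of all genes; median -0.11 against 0.00), and the higher calls were 4 without control IFNg replicate 1, the library with the lung label. PCNA was at 224 and 229 CPM under vehicle and 264 and 257 under IFNg (0.20 ± 0.05), and GINS2 went from 36.8 and 34.9 to 22.1 and 25.0 (-0.61 ± 0.11). HT29 null cells had 39 lower calls and none higher (34.5% and 33.3%; median -0.65 against -0.04), led by GINS2 (-1.35 ± 0.12) and MCM6 (-1.34 ± 0.06).

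In A549 31 members were lower in null than in control cells under IFNg and none higher (11.3% and 13% of all genes, median -0.31 against -0.01). DESeq2 called 21 lower. POLA2 led, at 21.2 and 21.8 CPM against 35.8 and 35.0 (-0.72 ± 0.11, adjusted p = 1.7e-09), and MCM5 differed by -0.51 ± 0.06. The groups of POLA2 did not overlap. The 6 epithelial markers summed to 3210 to 3380 CPM in null and 3890 to 3900 in control libraries under IFNg, with 2 called lower and 1 higher, and the leukocyte markers to 14.4 to 15.4 against 7.85 to 8.44; their part was not tested. Under vehicle 1 member, RRM1 (-0.15 ± 0.04), was lower (1.38% of all genes), and the call was lost without any 1 of the 4 vehicle libraries. Summed over the members, the vehicle level was 4564 to 4609 CPM in null and 4870 to 4871 in control libraries, without overlap. IFNg itself lowered 27 members and raised 2 in control cells (23.7% and 23.9%; median -0.32 against 0.00), with FEN1, the flap nuclease of lagging strand synthesis, going from 173 and 172 to 90.9 and 91.9 CPM (-0.92 ± 0.06) and GINS1 from 140 and 138 to 84.8 and 74.9 (-0.80 ± 0.06); the higher calls, ORC2 (0.18 ± 0.07) and POLD2 (0.20 ± 0.06), were 1 without control IFNg replicate 1 or 2 or control vehicle replicate 2. In null cells 36 were lower (26.7%). The interaction was lower for 14 members (4.92%), 9 without control IFNg replicate 1 or Ptpn2-null IFNg replicate 1 and 8 without Ptpn2-null vehicle replicate 1.

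MelJuSo control cells showed almost no response of these genes to IFNg. RPA1, the large RPA subunit, was the 1 member called (-0.14 ± 0.04; 5.18% of all genes lower), at 164, 161 and 166 CPM against 177, 189 and 175 under vehicle, and was not called without control vehicle replicate 2 (-0.11) or control IFNg replicate 2 (-0.13); the higher calls, 0 in all libraries, were 2 without control IFNg replicate 1 and 1 without control IFNg replicate 3. In null cells IFNg lowered 23 members and raised 2, POLD3 (0.32 ± 0.08) and RRM2 (0.14 ± 0.05; 27.4% and 27.2% of all genes; median -0.18 against 0.01), the latter count being 1 without Ptpn2-null IFNg replicate 2 or Ptpn2-null vehicle replicate 1 or 2. Null cells were lower than control cells under IFNg for 31 members and higher for none (25.7% and 25.5%; median -0.32 against 0.01). RRM1 measured 110, 104 and 113 CPM in null and 158, 183 and 174 in control libraries (-0.66 ± 0.05), LIG1 36.8, 36.9 and 37.4 against 59.3, 61.8 and 53.6 (-0.65 ± 0.07), and neither overlapped. The melanocyte markers summed to 3460 to 3750 CPM in null and 4700 to 4920 in control libraries under IFNg, with all 7 called lower, and the fibroblast markers, nearly all from LUM, to 22.8 to 30.5 against 49.9 to 53.6; their part was not tested. Under vehicle 3 members, CDC6, MCM2 and RFC3, were lower (0.554%), and 1 without control vehicle replicate 2 or 3 or Ptpn2-null vehicle replicate 1 or 3. Summed over the members, the vehicle level was 3532 to 3624 CPM in null and 3770 to 3933 in control libraries, without overlap. The interaction was lower for 20 members and higher for none (18.8% and 16.6%), with 1 higher without Ptpn2-null IFNg replicate 1.

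**Figure D4:**
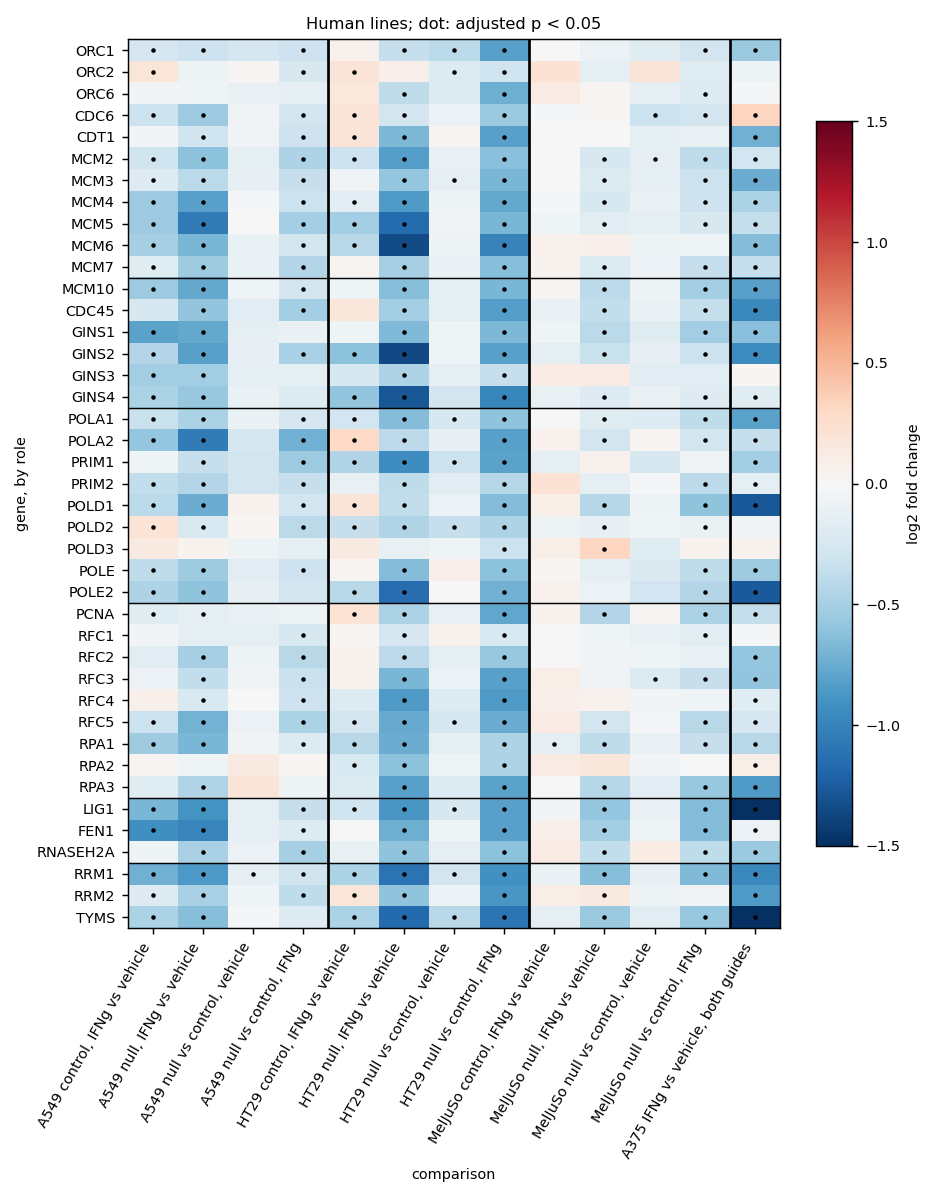
Log2 fold change (colour) of the 41 genes (rows, by role) in the human lines for IFNg against vehicle in control and null cells and for null against control cells under each treatment, with IFNg against vehicle over both guides in A375; dots mark adjusted p under 0.05, and the colour scale ends at 1.5 in size. In the columns of null against control under IFNg 31, 41 and 31 members carry a dot in A549, HT29 and MelJuSo.

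In A375, taken as the mean over both guides, IFNg lowered 33 members and raised 2 (35.6% and 36.6% of all genes; median -0.51 against 0.01). LIG1 fell from 52.3 and 45 CPM (labelled control) and 52.9, 51.6 and 59.2 (labelled null) under vehicle to 13.8, 10.8 and 12.3 and to 21.2, 17.8 and 17.6 under IFNg (-1.76 ± 0.07, adjusted p = 7.7e-63). TYMS fell by 1.53 ± 0.08 and POLD1, the catalytic subunit of polymerase delta, by 1.27 ± 0.04. For LIG1 all 6 IFNg libraries lay below all 5 vehicle libraries. Over both labels the melanocyte markers summed to 162 to 180 CPM under IFNg and 227 to 285 under vehicle. The epithelial markers summed to 246 to 298 against 441 to 545, and the fibroblast markers to 5.39 to 20.5 against 29.7 to 34.5. Their part in the result was not tested. CDC6 rose, from 95.2 and 94.3 CPM (labelled control) and 108, 108 and 110 (labelled null) to 137, 135 and 133 and to 117, 116 and 122 (0.32 ± 0.04). The other higher call, RPA2 (0.10 ± 0.04), was lost without any 1 of 6 libraries (labelled control IFNg replicates 1 and 3, labelled control vehicle replicate 3, labelled null IFNg replicates 2 and 3, labelled null vehicle replicate 3). Libraries labelled null differed from those labelled control by 18 higher and 3 lower calls under vehicle (12.4% and 8.73%) and by 5 higher and 16 lower under IFNg (25.8% and 25%), 10 lower without labelled null IFNg replicate 2.

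**Figure D5:**
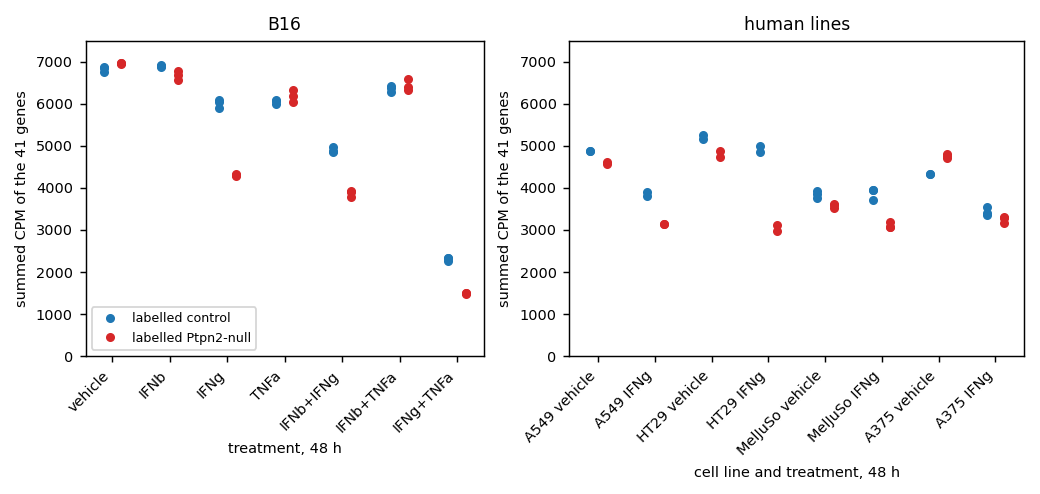
Summed CPM of the 41 genes in each library (points) by treatment in B16 (left) and by line and treatment in the human lines (right), for libraries labelled control (blue) and labelled Ptpn2-null (red). B16 libraries range from 6981 CPM under vehicle to 1484 under IFNg+TNFa, both in Ptpn2-null cells.

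Set side by side over B16, A549, HT29 and MelJuSo, which share no libraries, 21 members were called lower in null than in control cells under IFNg in all 4 lines and 15 in 3 of them. Of 8377 genes tested in all 4 lines, matched by symbol, 3.02% were lower in all 4 and 5.06% in 3. The 21 include Cdc6, Mcm2, Mcm3, Mcm4, Mcm5, Mcm7, Cdc45, Pola1, Pold1, Pole, Lig1, Fen1 and Rrm1. No member was called higher under IFNg in any line, against 47.9% of these genes higher in at least 1. Under vehicle 0, 1, 10 and 3 members were lower in B16, A549, HT29 and MelJuSo (1.16%, 1.38%, 8.66% and 0.554% of all genes). The member medians there were 0.02, -0.10, -0.13 and -0.11. At an unadjusted p under 0.05 (edgeR), 15 members were lower and 0 higher in A549, 19 and 0 in HT29, and 15 and 1 in MelJuSo. In B16 0 were lower and 5 higher. The share of all genes at that threshold is not given here. No member was called lower under vehicle in more than 2 lines, which says little, as only 0.119% of genes tested in all 4 lines were. The interaction was lower in all 4 lines for 6 members, against 0.621% of these genes: Mcm2, Mcm3, Mcm4, Mcm7, Pold1 and Rfc5, of which 4 are subunits of the helicase ring.

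A list of 38 other replication genes was chosen from knowledge of the pathway, with earlier results of these data known, so it is not an independent check. In B16 control cells under IFNg+TNFa it moved in the same direction for the most part. Of 37 tested there 31 were lower and 4 higher (33.3% and 36% of all genes), with a median of -1.40 against 0.03. Tk1, thymidine kinase, was at -2.79 ± 0.10 and Dscc1, an alternative clamp loader subunit, at -2.20 ± 0.16. The exception with the largest change was Samhd1, which breaks down deoxynucleotides and is known to be induced by interferon, at 2.92 ± 0.05; it was called higher under each of the 6 treatments. SAMHD1 was also higher under IFNg in control cells of A549 (1.41 ± 0.10), HT29 (4.23 ± 0.06) and MelJuSo (1.01 ± 0.07). In the MelJuSo interaction with IFNg the list went both ways. TK1 was called lower (-0.77 ± 0.06), and SAMHD1 (1.04 ± 0.10) and CDC7 (0.62 ± 0.13) were called higher. The other lines differed in part. For the same interaction SAMHD1 was called lower in HT29 (-1.07 ± 0.09) and higher in A549 (1.04 ± 0.14). CDC7 was called in neither, and TK1 was called lower in HT29 (-0.54 ± 0.06) and A549 (-0.35 ± 0.07).

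Of 26 tested genes of the E2F, RB and G1 cyclin list 16 were lower and 5 higher in B16 control cells under IFNg+TNFa. The shares of all genes were 33.3% and 36%, and the list's median was -0.47 against 0.03. E2f8 and Ccna2 led at -3.17 ± 0.10 and -2.77 ± 0.08, E2f1 was at -1.32 ± 0.07, and Cdkn1a, an inhibitor of cyclin-dependent kinases, was higher at 1.45 ± 0.05. Ccnd1, a G1 cyclin, was higher under the pair in control cells (0.39 ± 0.05) and lower in null than in control cells there (-2.10 ± 0.06). Under the pair in control cells all 21 mitosis genes were lower (33.3% of all genes), with a median of -2.22 and Mki67 at -3.38 ± 0.07. In null against control cells under IFNg all 21 mitosis genes were lower in B16, HT29 and MelJuSo and 20 in A549. Of all genes 17.2%, 20.5%, 25.7% and 11.3% were lower in these 4 lines.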

How the data were processed

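RNA-seq libraries of 5 cell lines were analysed from the raw read counts per gene that the authors deposited, 1 table per line. The tools named per the submitters' processing notes are HTSeq 0.6.1p1, Bowtie2 2.2.4, Trimmomatic 0.33, bcl2fastq 2.17.1.14 and DESeq2, with builds mm10 and hg19; which annotation and strand setting the counting used is not given in the sources used here. Each line was fitted separately with edgeR 4.0.16 (quasi-likelihood F test, low-count filter by group, TMM scaling, 1 mean per group over all groups of the line), and p-values were adjusted over all tested genes (Benjamini-Hochberg). A gene was called at an adjusted p under 0.05; the SE was taken as the absolute log2 fold change over the root of F. Tested genes numbered 11726 (B16), 12271 (MelJuSo), 12555 (HT29), 13172 (A549) and 13410 (A375). Library values are given for the called member with the largest change per role group, for Mcm2, Cdc6, Pcna, Pole, Rrm2 and Tyms in B16, and for members that went against the others; some human examples were chosen after their values were seen. Of the other lists up to 4 called genes with the largest change were eligible, plus Ptpn2, Mki67, E2f1, Cdkn1a, Ccne1 and Ccnd1. The members and lists were chosen with earlier results of these data known. Scripts were tested on simulated data; the limit on false calls was set on the mean of several draws after a single draw had come out high. Deviations of same-numbered replicates correlated from -0.563 to 0.645 over 27 comparisons. Every pair was over 0.1 in 1 of these, HT29 genotype under IFNg (0.118), which has 2 pairs; in no comparison with 3 pairs did all exceed 0.1, so no block was used. Alternatives were RLE size factors, no filter, DESeq2 1.42.0, a replicate block, only the compared groups, each library left out, and, added after seeing the data, removal of a trend with transcript length and of the 5 B16 libraries that stood apart.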

Additional observations from a re-analysis of the deposited data

Results flagged for a closer look

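The response of the replication genes to a cytokine differed between the genotypes by an interaction test in several settings, and each count is given against the 41 members. In B16 it differed for 30 members under IFNg (all lower in Ptpn2-null cells; 12.4% of all genes lower, 9.07% higher), 29 under IFNb+IFNg (all lower; 8.74% and 6.69%) and 30 under IFNg+TNFa (29 lower and 1 higher; 15.3% and 11%), and for 1 member, Pole, under IFNb (lower; 0.324% and 0.188%). Under IFNg, IFNb+IFNg and IFNg+TNFa DESeq2 called 26, 22 and 27 members lower. In the human lines under IFNg the response was lower in null cells for 14 members in A549 (4.92% of all genes lower, 6.36% higher), 35 in HT29 (11.8% and 7.37%) and 20 in MelJuSo (18.8% and 16.6%). DESeq2 called 5, 20 and 13 members for these interactions, each fewer by more than 1.5 times.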

How the results depend on the processing

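In B16 control cells IFNg+TNFa lowered 39 to 40 members when any 1 library was left out, and the genotype difference under IFNg held 33 to 34 lower calls. Of 808 member calls 18 were lost with RLE size factors, 36 without the filter, 8 with the replicate block, 127 with DESeq2 and 169 in at least 1 refit without 1 library. The replicate block moved several counts. Higher calls went to 1 for A375 IFNg, 1 for MelJuSo control IFNg and 3 for MelJuSo null IFNg. Lower calls for the vehicle genotype went to 2 in A549, 14 in HT29 and 5 in MelJuSo. For the interaction with IFNg they went to 16 in A549, 37 in HT29 and 29 in B16. Some further counts moved as well.

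With DESeq2 the counts were 0 higher for IFNg in B16 control cells, 4 higher for IFNb+IFNg against the sum, 1 higher for A375 IFNg, 0 higher for A549 control IFNg, 0 lower for the A549 vehicle genotype, 5 lower for the A549 interaction, 4 higher for HT29 control IFNg, 4 lower for the HT29 vehicle genotype, 20 lower for the HT29 interaction, 0 lower for MelJuSo control IFNg, 1 higher for MelJuSo null IFNg, 1 lower for the MelJuSo vehicle genotype and 13 lower for the MelJuSo interaction. For null against control under IFNg DESeq2 gave 33 lower calls in B16, 21 in A549, 39 in HT29 and 26 in MelJuSo. Between the A375 labels under IFNg it gave 11 lower. RLE size factors gave 0 higher for B16 IFNg. Without the filter the higher calls were 0 for B16 IFNg, 1 for IFNb+TNFa and 3 for IFNb+IFNg against the sum. With only the compared groups they were 2 for IFNg, 2 for IFNb+IFNg, 0 for the genotype under IFNb+IFNg and 7 for IFNb+TNFa against the sum, and the lower calls 3 for the genotype under IFNb, 2 and 1 for the IFNb and IFNb+TNFa interactions, 4 for IFNb+TNFa against the sum and 16 for the HT29 vehicle genotype. With the length trend removed the higher calls were 1 for TNFa, 2 for IFNb+IFNg against the sum and 8 for IFNb+TNFa against the sum, and the lower calls 0 for the IFNb interaction and 1 for IFNb+TNFa against the sum. Without the 5 libraries that stood apart the higher calls were 2 for IFNb+IFNg, 0 for the genotype under IFNb+IFNg and 7 for IFNb+TNFa against the sum. The lower calls were then 25 for the genotype under IFNb+IFNg and 22 for the IFNb+IFNg interaction. With only the compared groups these lower calls were 23 and 21. Directions turned with the length trend removed for Pole under TNFa (0.04), Rfc3 under IFNb+IFNg (-0.03) and, for IFNb+IFNg against the sum, Gins4 (-0.13), Rpa2 (-0.04) and Rpa3 (-0.22). The cause was not tested.

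When 1 library was left out, the higher calls ranged in B16 control cells from 5 to 7 for IFNb, 0 to 1 for IFNg, 2 to 5 for IFNb+IFNg, 1 to 5 for IFNb+TNFa, 3 to 7 for IFNb+IFNg against the sum and 3 to 5 for IFNb+TNFa against the sum; the lower calls ranged from 2 to 5 for IFNb and 1 to 3 for IFNb+TNFa against the sum. The B16 vehicle genotype had 0 to 1 higher and the IFNb interaction 0 to 1 lower. A375 had 1 to 2 higher for IFNg and 10 to 14 lower between labels under IFNg. A549 had 1 to 2 higher for control IFNg, 0 lower for the vehicle genotype and 8 to 14 lower for the interaction. HT29 had 4 to 7 higher for control IFNg and 6 to 8 lower for the vehicle genotype. MelJuSo had 0 to 2 higher and 0 to 1 lower for control IFNg, 1 to 3 higher for null IFNg, 1 to 3 lower for the vehicle genotype and 0 to 1 higher for the interaction. Depth limits the lowest members. In the Ptpn2-null IFNg+TNFa libraries of B16 Cdc6 had 14, 17 and 15 counts, Pole2 17, 21 and 17, and Gins1 40, 16 and 24.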
